A study of Homo sapiens with 2 samples.

Results

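A set of 10 WNT pathway genes was followed in H1 (WA01) human embryonic stem cells, an established pluripotent cell line: WLS, APCDD1, CCND1, LEF1, AXIN2, FZD7, SFRP1, SFRP2, TCF7L1 and TCF7L2. They are 10 of the 33592 genes listed in at least 1 of the 2 libraries. The genes were taken by symbol, and their summed unique molecular identifiers (UMIs, which count captured RNA molecules) were compared between both genotypes. The list was drawn up with the genotype ratios in these libraries known, so the ratios describe the libraries and are not tests. It holds secreted inhibitors and DNA-binding factors as well as genes of WNT secretion, receptors and targets.

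The ZNF263 KO library came from H1 cells with a homozygous Cas9 knockout of ZNF263, a zinc finger transcription factor, and the WT library from unedited H1 cells. Single cells were caught with barcoded beads in microwells, and their polyadenylated RNA was counted. There was 1 library per genotype, and the labels do not say whether the KO line is a single clone. No difference therefore has a replicate check, no p-value is given, and the 95% intervals cover counting error only.

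The pathway works through a short chain of steps. WLS carries lipid-modified WNT proteins to the surface of the cell that makes them, and Frizzled receptors such as FZD7, with the co-receptors LRP5 and LRP6, bind them on the receiving cell. Without ligand a destruction complex built on AXIN proteins removes beta-catenin, and with ligand beta-catenin gathers in the nucleus on factors of the TCF and LEF family, where it switches on targets such as AXIN2. SFRP1 and SFRP2 are secreted and bind WNT proteins through a domain like that of Frizzled, and APCDD1 is a membrane inhibitor. In human embryonic stem cells a rise in WNT signalling is known to start differentiation towards primitive streak.

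Both deep and shallow barcodes were used. Kept cells passed minimums of 1000 UMIs and 500 genes and a ceiling of 20% for UMIs from the mitochondrial genome (MT- genes), which gave 2286 KO cells with 3567881 UMIs and 2935 WT cells with 4650391 UMIs. Barcodes with 250 to under 1000 UMIs numbered 50551 for KO and 56837 for WT, with 21086560 and 23784553 UMIs in KO and WT, so their counting intervals are narrower. The whole libraries held 54559376 KO and 60578040 WT UMIs. Both kinds of barcodes come from the same cultures and share any free RNA, so they are not replicates of each other. Of the kept cells 20 barcodes occurred in both libraries, and of the 250 to under 1000 UMI barcodes 4665 did. At any depth 834126 of the 841049 KO and 842407 WT barcodes were listed in both. The sharing that random use of barcodes would give was not computed. ZNF263 itself was lower in the KO library, with 180 KO and 372 WT UMIs in the 250 to under 1000 UMI barcodes, or 8.54 and 15.6 CPM (UMIs scaled to 1000000 in their class), and the deleted stretch of ZNF263 is not named in the labels. The stem cell markers were present, with 13 of 13 measured and a summed level of 5270 CPM in KO and 4427 CPM in WT kept cells.

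The promoters of 6 of the 10 genes are in the RefSeq table of GRCh38.p14, the build of the files: WLS, APCDD1, LEF1, SFRP2, TCF7L1 and TCF7L2. The 250 bases before the start are shown for 2 genes that were lower in the KO library, WLS and APCDD1, and for 2 that differed little, TCF7L1 and SFRP2, so that the same letters can be looked for on both sides. Capitals mark GGGAGGA, a core of the purine-rich motif known for ZNF263, or its reverse TCCTCCC.
WLS, chr1:68232547-68232796, minus strand: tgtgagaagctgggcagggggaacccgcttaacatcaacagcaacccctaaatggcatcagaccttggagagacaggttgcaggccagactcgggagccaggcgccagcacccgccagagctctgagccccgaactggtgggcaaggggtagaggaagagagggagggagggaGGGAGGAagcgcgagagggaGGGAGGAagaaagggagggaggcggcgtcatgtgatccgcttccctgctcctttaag
APCDD1, chr18:10454385-10454634, plus strand: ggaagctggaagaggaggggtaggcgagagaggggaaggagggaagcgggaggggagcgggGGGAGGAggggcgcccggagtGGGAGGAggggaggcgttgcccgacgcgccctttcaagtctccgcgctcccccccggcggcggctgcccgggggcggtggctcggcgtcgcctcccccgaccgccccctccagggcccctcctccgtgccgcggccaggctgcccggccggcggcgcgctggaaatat
TCF7L1, chr2:85133142-85133391, plus strand: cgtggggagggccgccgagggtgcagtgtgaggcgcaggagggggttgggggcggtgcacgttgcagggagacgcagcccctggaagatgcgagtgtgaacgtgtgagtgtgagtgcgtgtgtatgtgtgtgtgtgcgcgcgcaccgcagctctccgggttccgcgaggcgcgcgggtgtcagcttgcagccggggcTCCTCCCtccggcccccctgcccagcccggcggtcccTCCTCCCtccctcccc
SFRP2, chr4:153789084-153789333, minus strand: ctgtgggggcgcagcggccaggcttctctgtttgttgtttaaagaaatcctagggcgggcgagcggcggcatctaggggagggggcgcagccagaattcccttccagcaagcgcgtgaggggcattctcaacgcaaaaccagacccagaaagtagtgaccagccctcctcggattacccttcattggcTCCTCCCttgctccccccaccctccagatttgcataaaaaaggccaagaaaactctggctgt

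The motif letters stood in all 4 of these windows, in genes that were lower in KO and in genes that differed little. The window of LEF1, which was also lower in KO, is not shown and held 0 copies. WLS held 2 copies, beginning 77 and 57 bases before the start, and APCDD1 held 2, at 189 and 168 bases, all on the strand of the gene. TCF7L1 held 2 on the opposite strand, at 53 and 16 bases, and SFRP2 held 1 there, at 62 bases. Counting every annotated start of the 6 genes, 7 of 9 windows held the letters, against 16.01% of 35116 windows of the same length over all genes. The 9 are not independent: the 2 windows of WLS overlap and hold the same 2 copies, and TCF7L2 has 3 windows. The windows over all genes were not matched for G and C content, so nothing is read from this comparison. The windows of APCDD1 and TCF7L1 were rich in G and C, at 77.2% and 72%, those of WLS and SFRP2 were at 62% and 57.6%, and the median over all windows was 58%. CTTTGAT, the core bound by TCF and LEF factors, and its reverse ATCAAAG occurred in 0 of the 9 windows and in 2.26% of all windows. The motifs therefore overlap in none of the 9 windows, and a match is a description of the window, not a bound site. The LEF1 window lies inside the gene because the table gives a start within it.

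A line at 1.5-fold was used to divide the genes into 2 sets. In kept cells 5 of the 10 were lower in KO by 1.5-fold or more, against a background of 13.0% of the 10129 genes whose mean reached 5 CPM, and 0 were at least 1.5-fold higher, against 3.94%. In barcodes with 250 to under 1000 UMIs the count was again 5, against 10.1% of 10148 genes, and again 0 were higher, against 2.79%. WLS, LEF1, APCDD1, CCND1 and AXIN2 were the 5 in both. By 2-fold or more, 4 were lower and 0 higher in both, against 3.84% and 0.928% of genes in kept cells and 2.85% and 0.512% in the shallower barcodes. All 10 genes passed the 5 CPM filter in both kinds of barcodes, LEF1 through its WT level alone. Since the genes were chosen on this contrast, nothing is read from these counts. Over the 10 genes the log2 ratios (KO over WT) had a median of -0.64 in kept cells and -0.62 in the 250 to under 1000 UMI barcodes, against -0.14 and -0.15 over all genes measured.

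**Figure D1:**
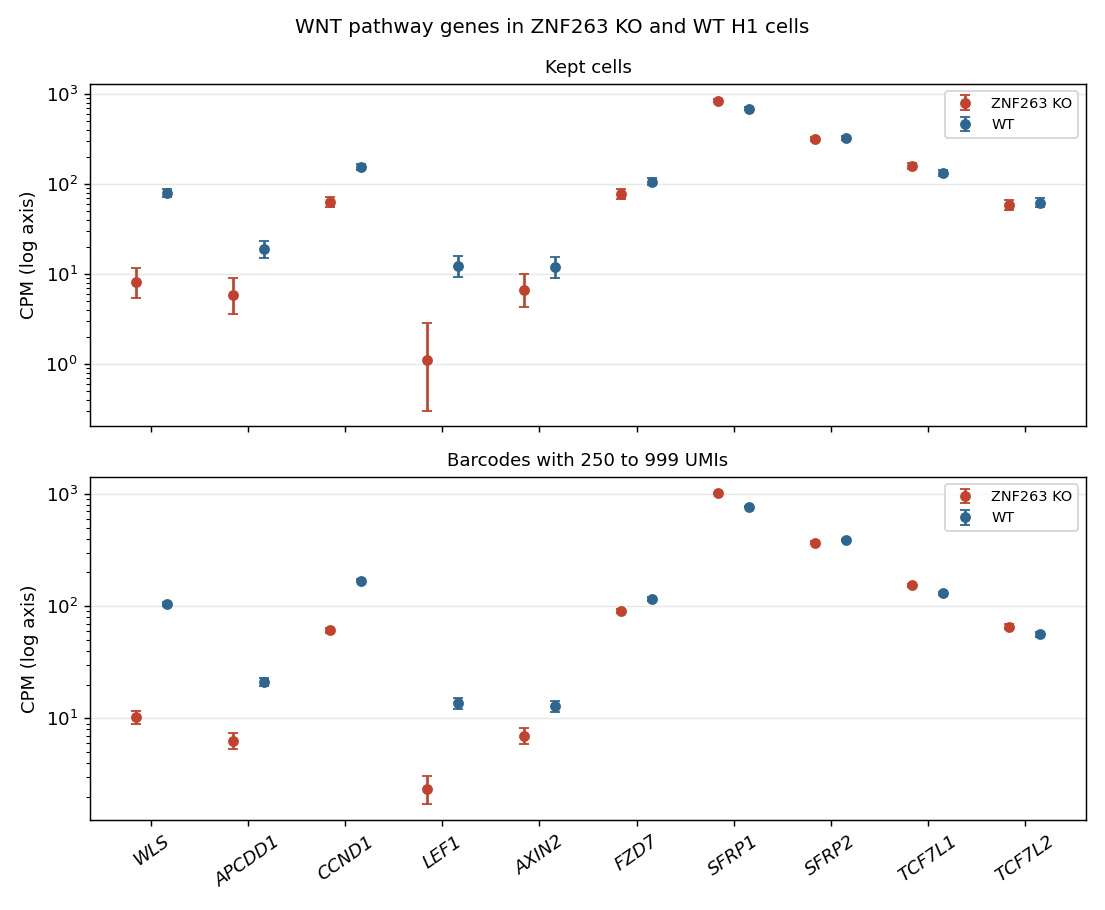
Level of each of the 10 genes in CPM (log axis) in ZNF263 KO (left of each pair) and WT (right), in kept cells (top) and in barcodes with 250 to under 1000 UMIs (bottom), with 95% Poisson intervals of the summed UMIs. WLS stands at 8.13 CPM in KO and 79.8 CPM in WT kept cells, while SFRP2 stands at 318 and 328 CPM.

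WLS, the carrier of WNT proteins in secretion, held 29 UMIs in KO and 371 UMIs in WT kept cells. That is 8.13 CPM in KO (interval 5.44 to 11.7) and 79.8 CPM in WT (interval 71.9 to 88.3). In barcodes with 250 to under 1000 UMIs it held 217 KO and 2470 WT UMIs, or 10.3 and 104 CPM. The intervals of both libraries lay far apart in both kinds of barcodes. The level in KO was 9.82-fold lower in kept cells (interval 6.72 to 14.9) and 10.1-fold lower in the 250 to under 1000 UMI barcodes (interval 8.78 to 11.7). Of all measured genes, 17 in kept cells and 14 in the shallower barcodes, WLS included, had a ratio as low. WLS overlaps the antisense gene GNG12-AS1, and counting by strand is not stated, but GNG12-AS1 held only 1 KO and 4 WT UMIs in the 250 to under 1000 UMI barcodes.

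LEF1, which recruits beta-catenin to DNA and is itself a WNT target, was the sparsest of the genes. It held 4 UMIs in KO and 57 in WT kept cells, and 49 KO and 324 WT UMIs in barcodes with 250 to under 1000 UMIs. The shallower barcodes give 2.32 CPM in KO (interval 1.72 to 3.07) and 13.6 CPM in WT (interval 12.2 to 15.2), a level 5.86-fold lower in KO (interval 4.33 to 8.09). In kept cells it was 10.9-fold lower, with an interval of 4.04 to 41.5 that contains the value from the shallower barcodes. LEF1-AS1, which overlaps LEF1, held 4 KO and 33 WT UMIs in the shallower barcodes, so reads of both genes may not be separable.

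Of the other members of the TCF and LEF family, TCF7L1, known as a repressor in embryonic stem cells, was slightly higher in KO. It held 569 KO and 625 WT UMIs in kept cells, or 159 CPM in KO (interval 147 to 173) and 134 CPM in WT (interval 124 to 145). In barcodes with 250 to under 1000 UMIs its log2 ratio was 0.23 (interval 0.16 to 0.31). TCF7L2 held 210 KO and 290 WT UMIs in kept cells, or 58.9 CPM in KO and 62.4 CPM in WT, with a log2 ratio of -0.08 whose interval, -0.35 to 0.18, included 0. In the 250 to under 1000 UMI barcodes it was higher in KO, at 65.9 CPM in KO and 56.4 CPM in WT, a log2 ratio of 0.22 (interval 0.11 to 0.33). TCF7L2 thus had no one direction across both kinds of barcodes. TCF7, the remaining family member, is not among the 10 genes and is given with the pathway lists.

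The targets CCND1 and AXIN2 were lower in KO. CCND1, the cyclin D1 gene, held 228 KO and 716 WT UMIs in kept cells, at 63.9 CPM in KO (interval 55.9 to 72.8) and 154 CPM in WT (interval 143 to 166). The same gene stood at 61.2 CPM in KO and 168 CPM in WT in the shallower barcodes, 2.75-fold lower in KO (interval 2.59 to 2.93). AXIN2, the scaffold of the destruction complex whose transcription follows pathway activity, held 24 KO and 56 WT UMIs in kept cells, or 6.73 and 12.04 CPM, and the intervals of KO (4.31 to 10.01) and WT (9.10 to 15.6) overlapped. With 147 KO and 304 WT UMIs in the shallower barcodes they did not, and AXIN2 was 1.83-fold lower in KO (interval 1.501 to 2.25). It was the smallest difference among the 5 genes, and the lower end of that interval lies at the 1.5-fold line. In kept cells AXIN2 was 1.79-fold lower, with an interval of 1.09 to 3.02 that contains the 1.5-fold line.

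APCDD1, the membrane inhibitor, held 21 KO and 88 WT UMIs in kept cells, at 5.89 CPM in KO (interval 3.64 to 8.997) and 18.9 CPM in WT (interval 15.2 to 23.3). In barcodes with 250 to under 1000 UMIs it held 133 KO and 501 WT UMIs and was 3.34-fold lower in KO (interval 2.75 to 4.07). The secreted inhibitors did not share this. SFRP1 held 3023 KO and 3195 WT UMIs in kept cells, or 847 CPM in KO (interval 817 to 878) and 687 CPM in WT (interval 663 to 711), and was 1.23-fold higher in KO (interval 1.17 to 1.30). In the shallower barcodes it was 1.31-fold higher (interval 1.29 to 1.34), at 1015 CPM in KO and 774 CPM in WT. SFRP2 was at 318 CPM in KO (interval 300 to 337) and 328 CPM in WT (interval 312 to 345), a log2 ratio of -0.04 with an interval of -0.16 to 0.07.

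FZD7, the Frizzled receptor among the 10, was lower in KO by less than 1.5-fold. It held 279 KO and 496 WT UMIs in kept cells, or 78.2 CPM in KO (interval 69.3 to 87.9) and 107 CPM in WT (interval 97.48 to 116). Its log2 ratio was -0.45 (interval -0.66 to -0.23) there and -0.37 (interval -0.45 to -0.28) in the 250 to under 1000 UMI barcodes. Genes that averaged 20 CPM or more had a median log2 ratio of -0.12 in both kinds of barcodes, and the ratios can be read against that value. Relative to that median, FZD7 was at -0.33 in kept cells and -0.25 in the shallower barcodes, and SFRP1 at 0.42 and 0.51.

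**Figure D2:**
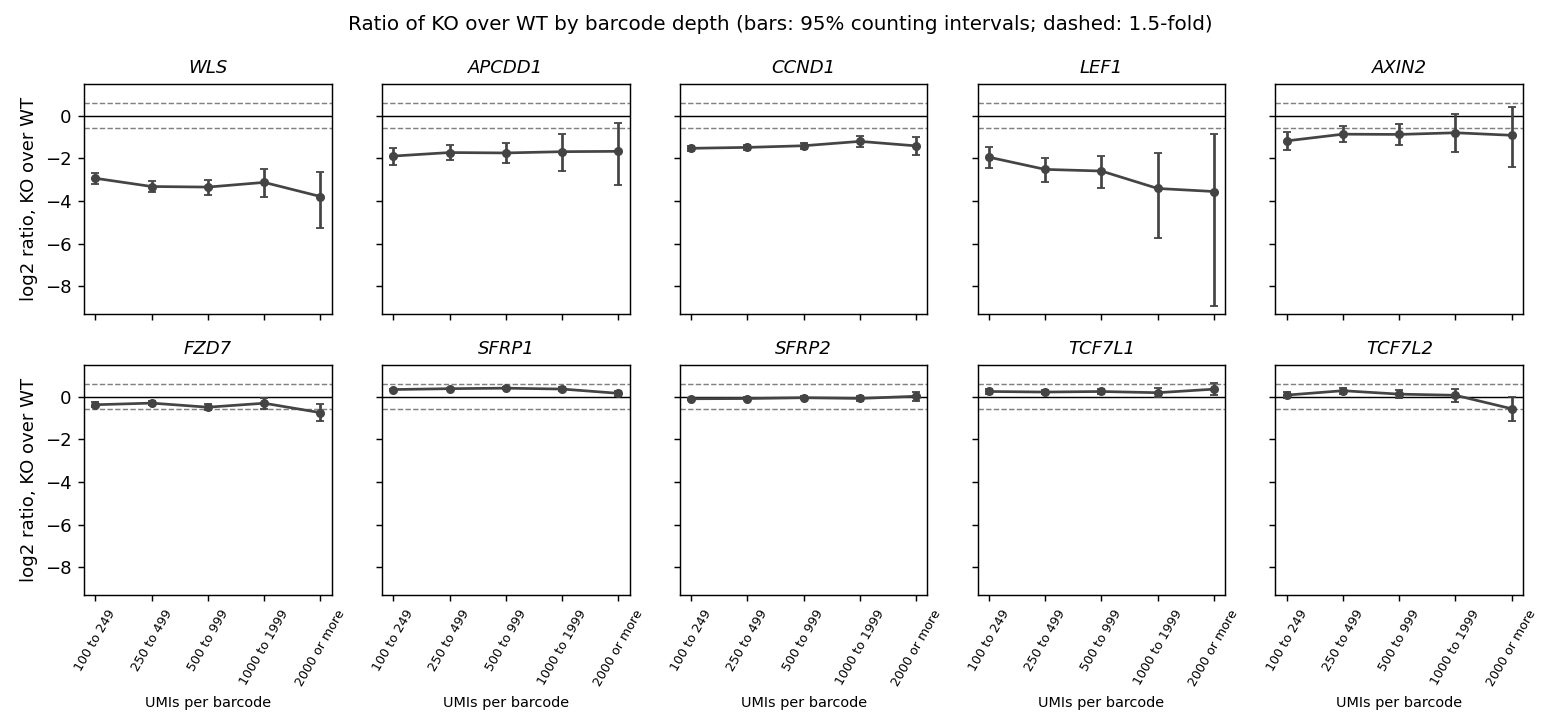
Log2 ratio of KO over WT for each of the 10 genes against the number of UMIs per barcode, in 5 depth classes from 100 to under 250 to 2000 or more UMIs, with 95% counting intervals and dashed lines at 1.5-fold. The points of WLS run from -2.94 in the shallowest class to -3.79 in the deepest, and those of SFRP2 stay between -0.09 and 0.03.

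The ratios were next followed over barcode depth in 5 classes. WLS stood at 12.9 KO and 98.7 WT CPM in barcodes with 100 to under 250 UMIs, at 10.4 and 104 CPM with 250 to under 500, at 10.1 and 103 CPM with 500 to under 1000, at 9.27 and 81.2 CPM with 1000 to under 2000 and at 5.53 KO and 76.7 WT CPM with 2000 or more. Its log2 ratio went from -2.94 (interval -3.19 to -2.70) in the shallowest class to -3.79 (interval -5.27 to -2.63) in the deepest, and these intervals overlap. In barcodes with only 10 to 99 UMIs, where free RNA and RNA of cells cannot be told apart, WLS was at 14.1 KO and 102 WT CPM. CCND1 ran between -1.53 and -1.21, APCDD1 between -1.90 and -1.68 and AXIN2 between -1.18 and -0.80. LEF1 ran between -3.56 and -1.95, with 1 KO UMI in the deepest class, where the interval of -8.95 to -0.87 is widest. SFRP1 stayed above 0 in each class, between 0.17 and 0.41, and TCF7L1 did too, between 0.19 and 0.36. TCF7L2 ran between -0.56 and 0.29, and the lowest value, in barcodes with 2000 or more UMIs, rests on 44 KO and 88 WT UMIs. FZD7 passed the 1.5-fold line in that class alone, at -0.74 (interval -1.14 to -0.36).

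The genes with ratios nearest to those of WLS over the 5 depth classes, by Euclidean distance of log2 ratios among 5708 genes, were NR2F1, POU3F2 and FST. Their distances were 1.47, 1.53 and 1.85. In kept cells their log2 ratios were -2.63, -3.54 and -2.62, beside -3.30 for WLS. NR2F1 and POU3F2 are transcription factors of the developing nervous system, and FST encodes the activin antagonist follistatin.

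Neural markers were lower in KO as well. Of 14 neural markers found, 10 were measured, 7 of them were at least 1.5-fold lower in KO kept cells and 1 at least 1.5-fold higher, beside 13.0% and 3.94% of all measured genes. The summed level of the list was 258 CPM in KO and 497 CPM in WT. NEUROG2 was at 0 in both libraries there. The shares of kept cells with at least 1 UMI of the list were 30.5% in KO and 47.2% in WT. WLS was therefore read in barcodes with and without a neural UMI. In kept cells with no neural UMI it was at 8.05 CPM in KO and 52.5 CPM in WT, a log2 ratio of -2.71, and in those with a neural UMI at 8.28 CPM in KO and 107 CPM in WT, a ratio of -3.69. Within the WT library WLS was thus 2.03-fold higher in kept cells with a neural UMI, a log2 difference of 1.02 (interval 0.70 to 1.35), while the KO difference was 0.04 (interval -1.23 to 1.22). The difference between both genotypes was not tested. In barcodes with 250 to under 1000 UMIs the same WT difference was 0.34 (interval 0.21 to 0.47).

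Without barcodes that held a neural UMI all 5 lower genes stayed at least 1.5-fold lower in KO, in both kinds of barcodes. The same held for barcodes with no UMI of CRABP1, a gene of a retinoic acid binding protein. For the sparse genes this rests on few UMIs. In kept cells with no neural UMI, LEF1 held 1 KO and 21 WT UMIs and AXIN2 held 14 KO and 25 WT UMIs. CCND1 in kept cells with no neural UMI was at 61.4 CPM in KO and 133 CPM in WT. In kept cells with 3 or more CRABP1 UMIs, 39 in KO and 168 in WT, WLS was at 0 UMIs in KO, whose exact Poisson limit is 37.0 CPM, and at 120 CPM in WT (interval 85.4 to 164). TCF7L1 stood at 190 CPM in KO and 80.1 CPM in WT in these cells, on only 19 KO and 26 WT UMIs. Of the 39 KO cells 23 held 2000 or more UMIs, and of the 168 WT cells 58 did, so these sets were not matched for depth. Primitive streak markers, which WNT signalling is known to induce in this cell type, summed to 13.7 CPM in KO and 37.8 CPM in WT kept cells, with EOMES and MIXL1 the 2 measured of 7 MSGN1 at 0 in both libraries and LHX1 at 0 in KO. Neural crest markers summed to 7.29 CPM in KO and 29.0 CPM in WT with 1 of 7 measured, and endoderm markers to 2.52 CPM in KO and 3.23 CPM in WT with 0 of 6 measured. Fibroblast markers, which include collagens that stem cells make, were higher in KO, at 422 CPM in KO and 313 CPM in WT, with 3 of 8 measured, DCN at 0 in both libraries and COL3A1 at 0 in KO. Amnion and trophoblast markers were at 8.97 CPM in KO and 13.5 CPM in WT with 1 of 6 measured. The part of these cells in the ratios was not tested, since leaving out barcodes with neural or CRABP1 UMIs cannot leave out all such cells. Fewer cells that make a transcript and less transcript per cell cannot be told apart in the sums.

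**Figure D3:**
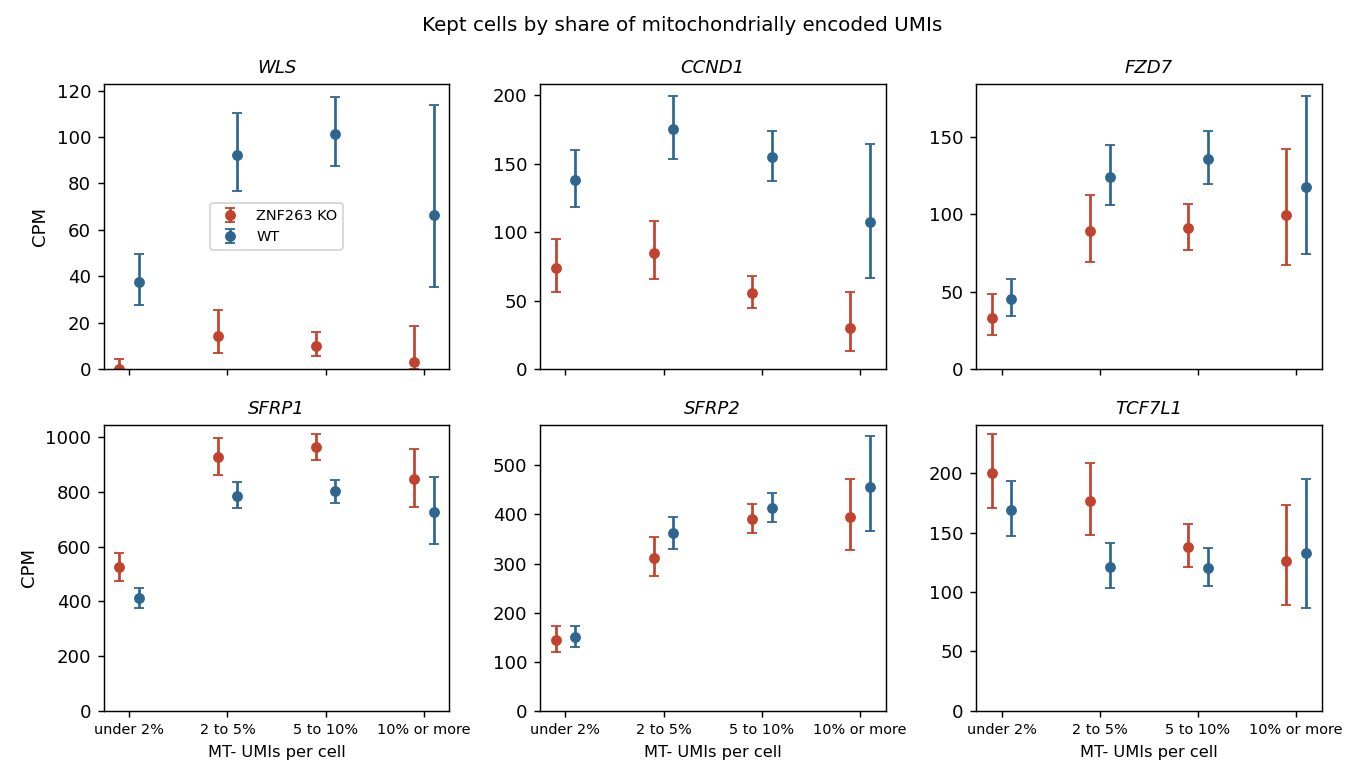
Level in CPM of 6 of the genes in kept cells, by the share of MT- UMIs per cell, in ZNF263 KO (left of each pair) and WT (right), with 95% Poisson intervals. In cells with under 2% MT- UMIs, SFRP2 is at 144 CPM in KO and 150 CPM in WT, against 391 and 414 CPM in cells with 5 to 10%.

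The genes also differed among cells of 1 library by the share of MT- UMIs, which was slightly higher in KO kept cells, at a median of 5.10%, than in WT kept cells, at 4.36%. Cells with under 2% MT- UMIs, 503 in KO and 784 in WT, held less WLS, FZD7, SFRP1 and SFRP2 than cells with 5 to 10%. FZD7 was at 33.3 CPM in the low cells and 91.1 CPM in the high cells of the KO library, a log2 difference of -1.45 (interval -2.10 to -0.85), and at 45.2 and 136 CPM in WT, a difference of -1.59 (interval -2.02 to -1.17). SFRP2 differed by -1.44 in KO and -1.47 in WT, and SFRP1 by -0.88 and -0.96. TCF7L1 went the other way in both libraries, by 0.53 in KO (interval 0.24 to 0.83) and 0.50 in WT (interval 0.22 to 0.77). CCND1 had intervals that included 0 in both, at 0.42 in KO and -0.16 in WT. WLS was at 0 of 810339 KO UMIs in the low cells, whose exact Poisson limit is 4.55 CPM, and at 37.4 CPM in WT (interval 27.6 to 49.6), so the upper end of the interval of the log2 ratio was -2.98. In cells with 5 to 10% MT- UMIs it was at 10.1 CPM in KO and 101 CPM in WT. The level in KO was 10.03-fold lower in these cells (interval 6.10 to 17.6). AXIN2 and APCDD1 were too sparse for the MT- classes and were not lower in KO in each of them. AXIN2 held 5 KO and 10 WT UMIs in cells under 2% (log2 ratio -0.34), 9 and 13 at 2 to 5% (0.25), 8 and 32 at 5 to 10% (-1.87), and 2 and 1 at 10% or more (0.38). Of these, the interval excluded 0 at 5 to 10% alone. APCDD1 held 4 KO and 0 WT UMIs in cells with 10% or more.

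Single cells gave little beyond the sums. After each kept cell was thinned at random to 1000 UMIs, 0.962% of KO cells (exact Clopper-Pearson interval 0.604% to 1.45%) and 7.53% of WT cells (interval 6.60% to 8.54%) held a WLS UMI. Without thinning the shares were 1.22% of KO and 10.8% of WT cells, at median depths of 1289.5 and 1328 UMIs. Drawing 1000 UMIs from the pooled UMIs of the 10 to 99 UMI barcodes would give 1.40% in KO and 9.74% in WT, so the shares are not counts of cells that make WLS. For 0 of the 20 shares, 10 genes in 2 libraries, did the interval lie above that profile in kept cells, and for 1 of 20, APCDD1 in KO, did it in the 250 to under 1000 UMI barcodes. Several kept-cell intervals lay below it, so these shares do not match that profile. Among them were WLS in WT and SFRP1 in WT (43.8% to 47.4% against 54.5%) and KO (53.1% to 57.2% against 63.3%). Variance over mean of the thinned counts, which is 1 for purely random capture, ran between 0.991 and 1.11 in KO and between 0.982 and 1.25 in WT kept cells, highest for SFRP1 in both. Of 45 pairs of the genes, 0 in KO and 2 in WT were found together in the 250 to under 1000 UMI barcodes more often than their separate shares give, by intervals not adjusted for the number of pairs. Those were SFRP2 with TCF7L2, at 93 barcodes against 70.1 (ratio 1.33, interval 1.07 to 1.63), and AXIN2 with TCF7L2. The largest absolute Pearson correlation of a pair was 0.0108 in KO and 0.0114 in WT over these barcodes, which share depth and free RNA. In kept cells 1 pair in KO, CCND1 with TCF7L2 (16 cells against 9.13), and 1 in WT, FZD7 with SFRP1 (160 against 129.6), were found together more often than their shares give, and 2 WT pairs less often. The largest absolute correlation there was 0.0793 in KO, for AXIN2 with TCF7L2 on 3 shared cells, and 0.0492 in WT.

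**Figure D4:**
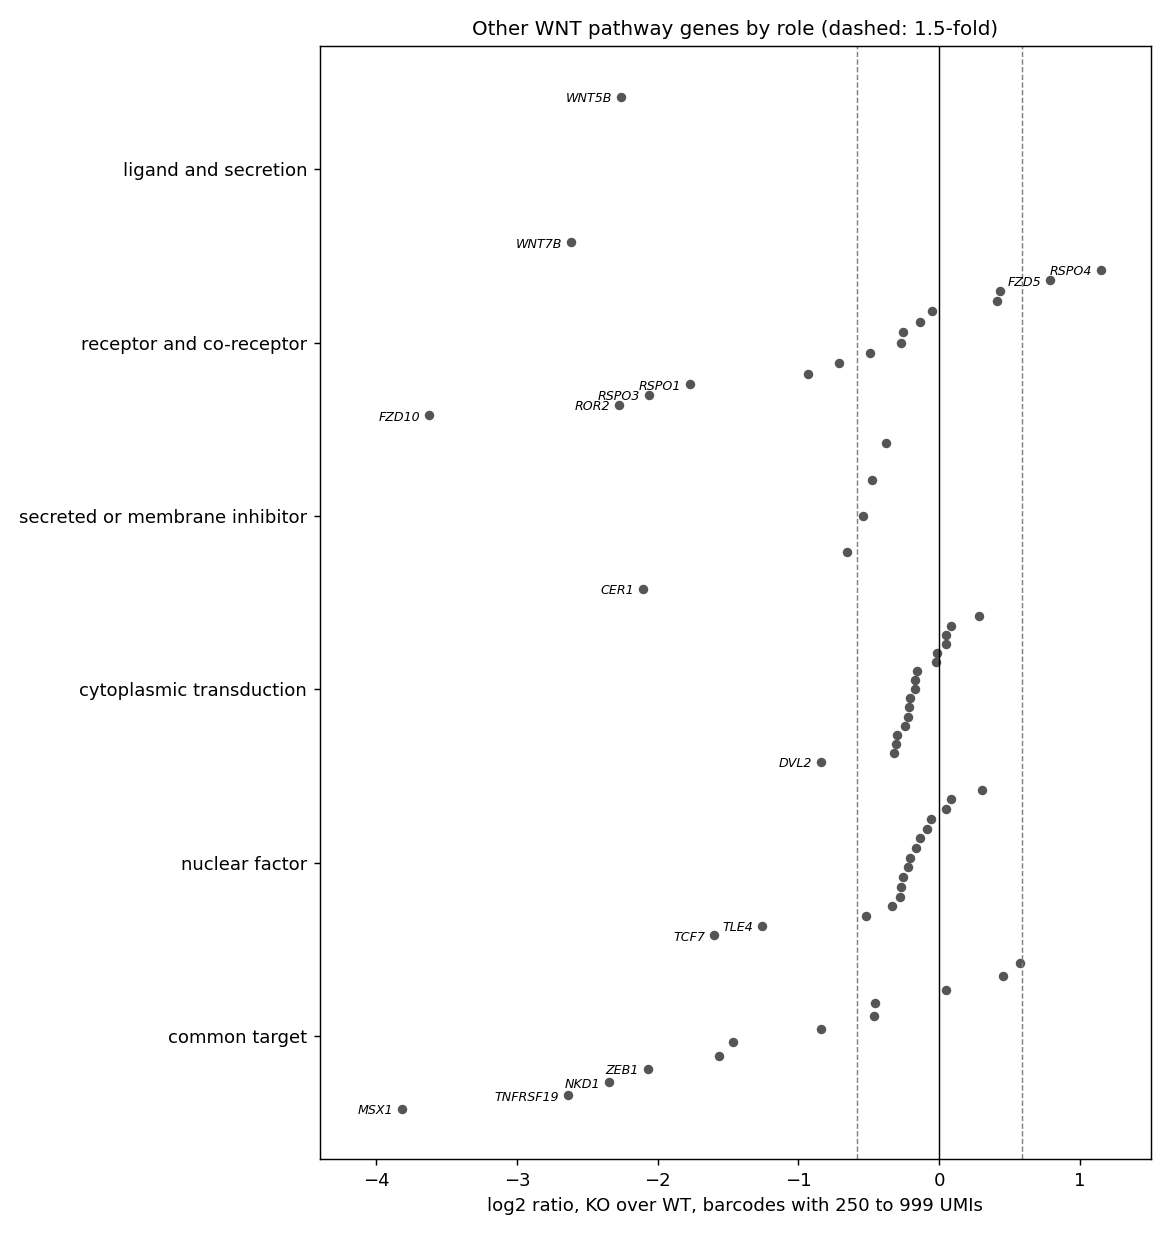
Log2 ratio of KO over WT in barcodes with 250 to under 1000 UMIs for other WNT pathway genes that averaged 5 CPM or more, 1 point per gene, grouped by role, with dashed lines at 1.5-fold. Points of the cytoplasmic group lie near 0 except DVL2 at -0.84, while FZD10 at -3.62 and MSX1 at -3.82 lie at the low end of theirs.

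The rest of the pathway was read from a list of 117 other genes sorted by role, of which 113 were found and 67 had a mean of at least 5 CPM in barcodes with 250 to under 1000 UMIs. Of the 67, 20 were at least 1.5-fold lower in KO and 2 at least 1.5-fold higher, or 29.9% and 2.99%, beside the 10.1% and 2.79% of all genes. In kept cells 15 of 61 were lower and 2 higher, or 24.6% and 3.28%, beside 13.0% and 3.94% of all genes. Of the lower genes, 12 of the 20 and 5 of the 15 reached the mean of 5 CPM through WT alone and had to be lower to some degree. The counts by role are therefore given as descriptions and support nothing. The median log2 ratio of the list was -0.27, against -0.15 over all genes. CDX2, SNAI2 and TBXT are also in the marker lists.

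Ligands were sparse. The 16 WNT genes found summed to 10.1 CPM in KO and 47.0 CPM in WT in barcodes with 250 to under 1000 UMIs, a log2 ratio of -2.22 (interval -2.44 to -2.01). WNT7B was at 1.99 CPM in KO and 12.2 CPM in WT and WNT5B at 1.75 and 8.41 CPM, log2 ratios of -2.61 and -2.26, and these were the 2 of 17 ligand and secretion genes that were measured, both through WT alone. In kept cells WNT7B held 10 KO and 29 WT UMIs, a log2 ratio of -1.15 (interval -2.36 to -0.08). Kept cells had 37 KO and 154 WT UMIs of WNT genes in all, and no ligand averaged 5 CPM over both libraries there.

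Receptors and their co-factors differed in direction: 6 of 15 were lower in KO by 1.5-fold or more and 2 were higher. The shares over all genes were 10.1% and 2.79%. Of the 6, 3 (FZD10, ROR2 and RSPO1) reached the mean of 5 CPM through WT alone and had to be lower to some degree. FZD10, a Frizzled receptor, was at 0.806 CPM in KO and 9.92 CPM in WT, a log2 ratio of -3.62 (interval -4.43 to -2.91). ROR2, a receptor tyrosine kinase for WNT5A, was at -2.28 (interval -2.64 to -1.92). RSPO3 and RSPO1, secreted R-spondins that strengthen WNT signals, were at -2.06 and -1.77, though RSPO1 was at -0.35 in kept cells, on 15 KO and 25 WT UMIs. The 2 higher genes, named after their values were seen, were RSPO4, at 12.2 CPM in KO and 5.51 CPM in WT (log2 ratio 1.15, interval 0.84 to 1.46), and FZD5, at 23.0 and 13.3 CPM (0.79, interval 0.58 to 1.00). FZD5 had a log2 ratio of 0.36 in kept cells. The group as a sum was at 438 CPM in KO and 572 CPM in WT.

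Among the other inhibitors 2 of 5 were lower and 0 higher, beside 10.1% and 2.79% of all genes. Of the 2, CER1 reached the mean of 5 CPM through WT alone. CER1, a secreted inhibitor of WNT, NODAL and BMP made in early endoderm, was at 2.28 CPM in KO and 9.80 CPM in WT, a log2 ratio of -2.11 (interval -2.59 to -1.65). FRZB, a further SFRP family member, was at -0.66 (interval -0.84 to -0.48), and its 19.1 CPM in KO and 30.1 CPM in WT set it apart in direction from SFRP1. ZNRF3, the ubiquitin ligase that removes Frizzled from the surface, was at -0.54, and TRABD2A, a protease that cuts WNT proteins, at -0.48.

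In the cytoplasmic machinery 1 of 17 measured genes, or 5.88%, was at least 1.5-fold lower and 0 were higher. Over all genes the shares were 10.1% and 2.79%. The median log2 ratio of the 17 was -0.18 in the shallower barcodes and -0.26 in kept cells. The 1 was DVL2, a Dishevelled adaptor, at 11.8 CPM in KO and 21.1 CPM in WT (-0.84, interval -1.06 to -0.62). SIAH1, APC and GSK3A were at -0.32, -0.31 and -0.30. Of the nuclear factors 2 of 16 were lower and 0 higher, a share of 12.5% near the 10.1% of all genes. Of the 2, TCF7 reached the mean of 5 CPM through WT alone. TCF7 was at 4.79 CPM in KO and 14.5 CPM in WT (-1.60, interval -1.93 to -1.27). TLE4, a co-repressor of TCF factors, was at 34.2 CPM in KO and 81.9 CPM in WT (-1.26, interval -1.38 to -1.14). HIPK2 was at -0.52 and TLE3 at -0.33.

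Among common targets 7 of 12 were at least 1.5-fold lower in KO and 0 higher, beside 10.1% and 2.79% of all genes. Of the 7, 5 had reached the mean of 5 CPM through WT alone, among them MSX1, TNFRSF19, NKD1 and ZEB1. The others, named after their values were seen, were SP8 at -1.46 (interval -1.74 to -1.19) and ID2 at -0.84 (interval -0.945 to -0.738). Above 0 but within the 1.5-fold line were JUN at 0.58 (interval 0.29 to 0.87), MYC at 0.45 and MYCN at 0.04, also named afterwards. MSX1, a homeobox gene, was at 1.00 CPM in KO and 14.0 CPM in WT, a log2 ratio of -3.82 (interval -4.53 to -3.18), and at -1.52 in kept cells, where it held 8 KO and 30 WT UMIs. TNFRSF19, a receptor of the tumour necrosis factor family, was at -2.64, NKD1, a feedback inhibitor that binds Dishevelled, at -2.35 (3.70 CPM in KO and 18.8 CPM in WT), and ZEB1, a repressor of epithelial genes, at -2.07. In kept cells NKD1 was at -2.07 and ZEB1 at -2.05. There 6 of 11 measured targets were lower and 1 higher, beside 13.0% and 3.94% of all genes. Of the 6, 4 (NKD1, SP5, AMOTL2 and ZEB1) reached the mean of 5 CPM through WT alone and had to be lower to some degree. SP5, a transcription factor known as a direct WNT target and named after its values were seen, held 0 KO and 59 WT UMIs in kept cells. The upper end of the interval of its log2 ratio was -3.57. In the shallower barcodes it held 5 KO and 196 WT UMIs, with a mean under 5 CPM, so it is not among the 12.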

How the data were processed

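Each library came as 1 table of whole-number UMI counts by gene and barcode, deposited without normalization. STAR 2.7.10a, UMI-tools 1.1.2, hg38, Subread and featureCounts 2.0.1 are listed in the submitters' processing notes. Their role and order, the annotation and any barcode filter were not given in the sources used here. The KO table held 15 entries more than its size line, all used. UMIs were summed per barcode class, scaled to CPM and given exact Poisson intervals. Ratios have exact conditional binomial intervals, which contain counting error only. Doublets were not removed, and an alternative left out barcodes over 4 times the median UMIs. Thinning drew UMIs without replacement. The members and lists were chosen with earlier results of these data known. Named were the 10 members, ZNF263, up to 4 pathway genes per role with the largest absolute log2 ratio in 250 to under 1000 UMI barcodes, and the 3 genes nearest to WLS. Intervals were tested on simulated Poisson counts, the model they are built on, which checks the calculation and not the spread between libraries or cells. Gene symbols were taken as deposited. Python 3.11.15, NumPy 2.4.6, SciPy 1.17.1 and pandas 2.3.3 were used.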

Additional observations from a re-analysis of the deposited data

How the results depend on the processing

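The 5 lower genes stayed at least 1.5-fold lower in KO in all 125 values that the listed alternatives gave for them, though not in each class of MT- share, where AXIN2 and APCDD1 were sparse, and the count of lower members was 5 in each except 4 at a 2-fold line and 6 in cells with at least 2000 UMIs. Of 250 member ratios under alternatives, 10 had the other sign. SFRP2 in the 250 to under 1000 UMI barcodes, whose interval excluded 0, was at 0.053 when centred on the median of genes that averaged 20 CPM or more. The other 9 were in kept cells, where the intervals included 0: SFRP2 under 3 alternatives (0.021 to 0.072) and TCF7L2 under 6 (0.032 to 0.29). The count of other pathway genes at least 1.5-fold lower was 20. It was 5 with a minimum mean of 20 CPM and 54 with none, and the count of higher genes, 2, was 0 and 4 under these filters, which change how many genes are counted. The shares over all genes at these filters are not given, so these counts cannot be set beside the 20. Of the 20, 12 had reached the mean of 5 CPM through WT alone. The count of higher genes was also 4 in barcodes with 250 to under 500 UMIs, where the cause was not tested. Leaving out barcodes found in both libraries was chosen after seeing the data and moved no member's count. No paired analysis was possible because each genotype has 1 library. Depth limits LEF1, AXIN2 and APCDD1 in kept cells, and no alternative replaces a second KO line or culture.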
